A study of Mus musculus with 27 samples.

Results

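The genes described here are the enzymes and regulators of de novo lipogenesis, the route by which liver cells make fatty acids from sugar carbon. They were chosen by symbol: Fasn, Acaca, Acacb, Acly, Scd1, Elovl6, Me1, Srebf1, Mlxipl and Pnpla3, 10 of the 43346 genes in the deposited table. All 10 members passed the filter on low counts. RNA of liver hepatocytes was sequenced from female mice at 12 weeks of age of 9 inbred strains, with 3 libraries labelled as biological replicates per strain and 27 libraries in all. An inbred strain is a single genotype kept by brother-sister mating. C57BL/6J is the strain of the mouse reference genome, and A/J, DBA/2J and 129S1/SvImJ are other common laboratory strains. NOD/ShiLtJ is prone to autoimmune diabetes and NZO/HlLtJ to obesity. PWK/PhJ, CAST/EiJ and WSB/EiJ were derived from wild-caught mice. The labels name no treatment, diet, feeding state or time of day for any strain. P-values measure the spread between these libraries, and nothing in the labels ties each library to a mouse of its own.

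In hepatocytes, citrate leaves the mitochondria and ATP citrate lyase (Acly) splits it into acetyl-CoA, which acetyl-CoA carboxylase (Acaca, Acacb) turns into malonyl-CoA. Fatty acid synthase (Fasn) builds palmitate from these units with NADPH, part of which malic enzyme (Me1) supplies, and Elovl6 and Scd1 then lengthen and desaturate the product. The transcription factors SREBP-1 (Srebf1) and ChREBP (Mlxipl) raise transcription of these enzymes in response to insulin and to sugar, so that the pathway is high after feeding and low in fasting, and the lipid droplet protein encoded by Pnpla3 follows the same regulators.

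Library totals ran from 17015942 to 35078485 counts, and each of the 27 libraries was most like another library of its own strain. Levels are given as CPM, counts scaled to a common normalised library size. The hepatocyte label was checked against 10 hepatocyte genes, which were expressed in all strains; albumin (Alb) alone had a mean of 86600 ± 5485 CPM (SD, n = 3) in CAST/EiJ, its lowest strain. Markers of Kupffer cells (the macrophages of the liver) and of liver endothelial cells were also present: their summed levels over 11 and 10 genes ran from 35.8 to 450 CPM and from 62.7 to 809 CPM over the libraries. Of 6 adipocyte genes, the defining markers Lep, Plin1, Cfd, Retn and Adipoq had at most 0, 1, 1, 3 and 7 counts in a library; Car3, which hepatocytes also express, was high. In such bulk samples, fewer cells of a type and less RNA per cell cannot be told apart.

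Of the 10 members, 8 differed among the 9 strains (edgeR quasi-likelihood test, Benjamini-Hochberg adjusted p under 0.05), and Acaca and Mlxipl did not pass. This share is close to the background, since 74.2% of the 14482 genes tested passed the same test. Between the highest and the lowest strain mean, members differed by a median of 1.49 on the log2 scale, beside 1.17 over all genes tested. Libraries of the same strain also differed more: the median within-strain SD was 0.43 for members and 0.28 for all genes, in log2 CPM. Strain accounted for a median of 62.5% of a member's sum of squares, beside 66.6% over all genes. In the 36 pairs of strains, 92 of 360 member tests (25.6%) passed, beside 23.4% over all genes. Per kilobase of the longest transcript, the mean level was highest for Scd1, at 687 CPM per kb, then 122 for Srebf1, 69.98 for Mlxipl, 53.6 for Fasn, 48.1 for Acly and 42.2 for Me1. It was lower for Elovl6 (16.4 CPM per kb), Acaca (10.1), Acacb (9.78) and Pnpla3 (5.45).

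**Figure D1:**
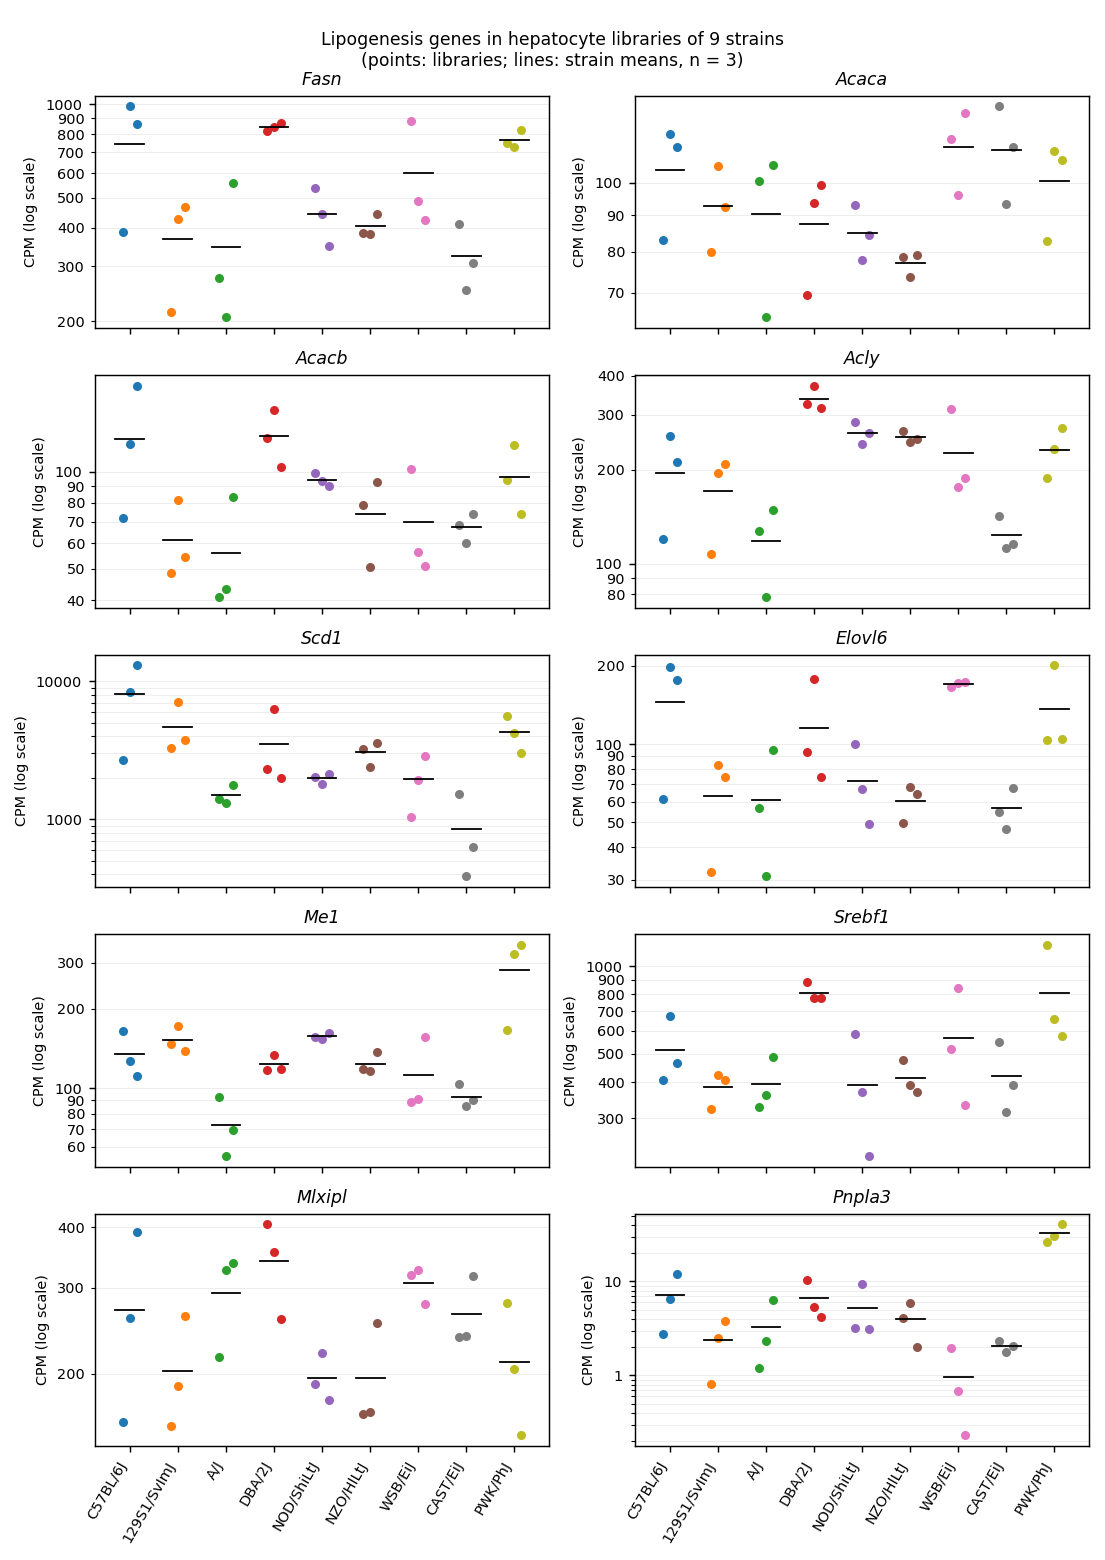
Level of each of the 10 genes in CPM (log axis) in every library, by strain; points are libraries and horizontal lines are means of the 3 libraries of a strain. Pnpla3 stands apart in PWK/PhJ, at 26.6 to 40.7 CPM against at most 12.1 CPM in any other library, and Fasn libraries lie close together in DBA/2J and far apart in C57BL/6J.

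The promoters of Fasn, Elovl6, Acly and Pnpla3 are shown because Fasn, Elovl6 and Acly varied together across libraries and Pnpla3 had the widest range among strains. Each line holds the 250 bases before the RefSeq start of transcription (build GRCm38.p6, 5′ to 3′ on the gene's strand). Capitals mark matches on either strand to CCAAT, the box bound by NF-Y, and to GGGCGG, the GC box bound by Sp1.
Fasn promoter: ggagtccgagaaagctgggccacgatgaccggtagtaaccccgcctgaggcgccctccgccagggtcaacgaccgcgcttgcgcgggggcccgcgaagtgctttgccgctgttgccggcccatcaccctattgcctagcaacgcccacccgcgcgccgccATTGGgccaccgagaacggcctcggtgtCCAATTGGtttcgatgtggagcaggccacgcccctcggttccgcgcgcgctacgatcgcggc
Elovl6 promoter: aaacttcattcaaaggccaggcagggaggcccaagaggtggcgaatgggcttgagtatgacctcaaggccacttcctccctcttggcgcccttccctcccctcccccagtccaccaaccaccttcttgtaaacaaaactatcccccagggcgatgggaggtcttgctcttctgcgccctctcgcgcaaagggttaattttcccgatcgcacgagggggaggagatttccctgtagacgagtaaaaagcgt
Acly promoter: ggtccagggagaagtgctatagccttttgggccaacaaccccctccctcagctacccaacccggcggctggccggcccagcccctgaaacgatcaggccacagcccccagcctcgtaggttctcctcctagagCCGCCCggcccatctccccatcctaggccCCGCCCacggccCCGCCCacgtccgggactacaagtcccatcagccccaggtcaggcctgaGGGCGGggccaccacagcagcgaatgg
Pnpla3 promoter: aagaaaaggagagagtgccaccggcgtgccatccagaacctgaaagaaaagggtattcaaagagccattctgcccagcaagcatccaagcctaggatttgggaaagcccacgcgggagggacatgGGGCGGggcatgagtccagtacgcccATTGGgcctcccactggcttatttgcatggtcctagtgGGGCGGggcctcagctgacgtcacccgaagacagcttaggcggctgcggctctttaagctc
They lie at chr11:120824548-120824797 (minus strand), chr3:129532136-129532385 (plus), chr11:100528001-100528250 (minus) and chr15:84167566-84167815 (plus). The Fasn stretch holds 3 NF-Y boxes, at -90, -62 and -59 from the start, of which the last pair overlap by sharing bases. The Acly stretch holds 4 GC boxes, and that of Pnpla3 holds 1 NF-Y box at -99 and GC boxes at -125 and -61. In the Elovl6 stretch neither of these letters was found. Over windows of 300 bases (250 before and 50 after the start), 37.4% of 32851 RefSeq windows hold CCAAT and 35.7% hold GGGCGG. Such a window was found for 9 members, some with several, 13 windows in all, and CCAAT was in 8 of these 13 and GGGCGG in 6. The sterol regulatory element core TCACNCCAC, a form of the site bound by SREBP, was in 1.24% of all windows and in 1 of 13 member windows, a second start of Mlxipl. The E-box CACGTG, which ChREBP and many other factors bind, was in 7.15% of all windows and in 1 member window, the first of Mlxipl. A match is a description of the letters, read here from the reference strain, and the other strains may differ in sequence.

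Srebf1 (ENSMUSG00000020538, chr11:60199089-60222581, minus strand, GRCm38) encodes SREBP-1, the insulin-responsive activator of lipogenic genes. It was highest in DBA/2J and PWK/PhJ, and on the log2 scale the means of DBA/2J and of NOD/ShiLtJ, the lowest, differed 2.22-fold. Its mean levels were 811 ± 59.6 CPM in DBA/2J, 808 ± 331 CPM in PWK/PhJ, 565 ± 257.5 CPM in WSB/EiJ, 514 ± 141 CPM in C57BL/6J and 419 ± 119 CPM in CAST/EiJ (SD, n = 3 each). The 4 lower strains lay together, with 413 ± 56.7 CPM in NZO/HlLtJ, 393 ± 84 CPM in A/J, 392 ± 181 CPM in NOD/ShiLtJ and 384.5 ± 54 CPM in 129S1/SvImJ. The DBA/2J libraries had 879.6, 778 and 775 CPM and those of PWK/PhJ 1186, 660.3 and 577 CPM. DBA/2J lay above all libraries of C57BL/6J, 129S1/SvImJ, A/J, NOD/ShiLtJ, NZO/HlLtJ and CAST/EiJ, whereas the wide PWK/PhJ range reached into those of C57BL/6J and NOD/ShiLtJ. The strain effect passed (edgeR adjusted p = 0.00888), as did 10 of 36 pairs, each with DBA/2J or PWK/PhJ on the higher side. DBA/2J exceeded 129S1/SvImJ by 1.08 ± 0.33 (SE) on the log2 scale (edgeR adjusted p = 0.029), and PWK/PhJ exceeded it by 1.07 ± 0.33 (adjusted p = 0.0154). Srebf1 shares exon sequence with Rai1 on the opposite strand; Rai1 had 121 to 251 counts per library against at least 6399 for Srebf1. The deposited values do not separate the SREBP-1a and SREBP-1c transcripts.

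Mlxipl (ENSMUSG00000005373, chr5:135089890-135138382, plus strand) encodes ChREBP, the sugar-responsive partner of that control. Its strain means of log2 CPM covered a narrow range, 1.74-fold, and did not follow those of Srebf1 closely. They were 340 ± 74.4 CPM in DBA/2J, 308 ± 25.9 CPM in WSB/EiJ, 293 ± 67 CPM in A/J, 270.3 ± 116.5 CPM in C57BL/6J and 265 ± 45.2 CPM in CAST/EiJ, and then 211 ± 65.3 CPM in PWK/PhJ, 202 ± 54.4 CPM in 129S1/SvImJ, 196 ± 51.1 CPM in NZO/HlLtJ and 196 ± 22.5 CPM in NOD/ShiLtJ (SD, n = 3 each). Libraries of C57BL/6J alone covered most of that range, with 159, 260.2 and 391.5 CPM. The strain effect missed the threshold (edgeR adjusted p = 0.0543), and 0 of 36 pairs passed in edgeR, with 9 at an unadjusted p under 0.05; DESeq2 called 3 pairs. The call turned on the settings: the adjusted p was 0.0157 with no filter on low counts, 0.0186 with DESeq2 and 0.000339 with the Kupffer and endothelial marker levels in the model, which called 14 pairs. It was 0.0141 without C57BL/6J replicate 1 and 0.0238 without C57BL/6J replicate 4. It also fell under the threshold without 129S1/SvImJ replicate 3 (0.0311), A/J replicate 1 (0.034), DBA/2J replicate 4 (0.0348), NZO/HlLtJ replicate 3 (0.0305) or PWK/PhJ replicate 1 (0.0257). A miss here does not show that the strains had equal levels of Mlxipl.

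Acly (ENSMUSG00000020917, chr11:100476353-100528000, minus strand), which makes cytosolic acetyl-CoA from citrate, was highest in DBA/2J and lowest in A/J and CAST/EiJ, 2.94-fold between the extreme strain means of log2 CPM. Mean levels were 337 ± 30.3 CPM in DBA/2J, 262 ± 21.7 CPM in NOD/ShiLtJ, 254 ± 10.9 CPM in NZO/HlLtJ and 230.5 ± 41.6 CPM in PWK/PhJ (SD, n = 3 each). Below them were 225.5 ± 75.5 CPM in WSB/EiJ, 196 ± 69.4 CPM in C57BL/6J, 170.4 ± 55.1 CPM in 129S1/SvImJ, 123 ± 16.5 CPM in CAST/EiJ and 118 ± 36 CPM in A/J. The DBA/2J libraries had 324, 371 and 315 CPM, and all 3 lay above every library of the other strains. The A/J libraries had 128, 78.3 and 148 CPM and those of CAST/EiJ 142, 112 and 116 CPM, all of them under the libraries of PWK/PhJ, WSB/EiJ, NZO/HlLtJ, NOD/ShiLtJ and DBA/2J. A difference among strains passed (edgeR adjusted p = 0.000401), with 11 of 36 pairs, 10 of them against A/J or CAST/EiJ. A/J was lower than DBA/2J by 1.51 ± 0.27 (SE, log2; edgeR adjusted p = 0.000484), and CAST/EiJ was lower by 1.45 ± 0.27 (adjusted p = 0.000226). No strain differed from C57BL/6J in Acly at the threshold. DBA/2J had the largest change, 0.78 ± 0.27 on the log2 scale without overlap (edgeR adjusted p = 0.0729), and CAST/EiJ the smallest adjusted p, with -0.67 ± 0.27 (0.0536).

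Me1 (ENSMUSG00000032418, chr9:86581371-86695953, minus strand), the cytosolic malic enzyme that makes NADPH, was higher in PWK/PhJ than in each of the other 8 strains. The PWK/PhJ libraries had 166, 324 and 351 CPM. The first of these lay below the highest 129S1/SvImJ library, at 173 CPM, and just above the highest C57BL/6J library, at 165 CPM. Mean levels were 280.1 ± 99.9 CPM in PWK/PhJ, 157.5 ± 4.1 CPM in NOD/ShiLtJ, 153 ± 17.9 CPM in 129S1/SvImJ, 134.5 ± 27.5 CPM in C57BL/6J and 124 ± 11.7 CPM in NZO/HlLtJ (SD, n = 3 each), and then 123 ± 9.3 CPM in DBA/2J, 112 ± 38.7 CPM in WSB/EiJ, 93.1 ± 9.4 CPM in CAST/EiJ and 72.6 ± 19 CPM in A/J. The increases of PWK/PhJ ran from 0.83 ± 0.24 (SE, log2) over NOD/ShiLtJ to 1.95 ± 0.24 over A/J, with edgeR adjusted p of 0.0103 and 1.12e-06. The strain effect passed with an adjusted p of 1.06e-05, and 15 of 36 pairs passed. Leaving out PWK/PhJ replicate 2 or replicate 3 left 7 of the 8 PWK/PhJ pairs, and leaving out replicate 1 left all 8. A/J was lowest, with 93, 55.4 and 69.5 CPM, and was lower than C57BL/6J by 0.89 ± 0.24 (SE, log2; edgeR adjusted p = 0.0184). The estimated counts of Me1 were not whole in 21 libraries, as can happen where reads are shared among similar sequences; how the counter shared them is not given in the sources used here.

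Acacb and Acaca encode the 2 forms of acetyl-CoA carboxylase, and their strain patterns differed in size. Acacb (ENSMUSG00000042010, chr5:114146535-114250761, plus strand), whose protein sits at the mitochondrial surface and limits fatty acid oxidation, was highest in DBA/2J and C57BL/6J and lowest in A/J. Mean levels were 128 ± 26.1 CPM in DBA/2J, 126 ± 56.4 CPM in C57BL/6J, 96.2 ± 23.3 CPM in PWK/PhJ, 94.2 ± 4.44 CPM in NOD/ShiLtJ and 74 ± 21.5 CPM in NZO/HlLtJ (SD, n = 3 each), and then 69.8 ± 27.9 CPM in WSB/EiJ, 67.5 ± 6.84 CPM in CAST/EiJ, 61.4 ± 17.6 CPM in 129S1/SvImJ and 55.8 ± 23.7 CPM in A/J. The C57BL/6J libraries had 72, 122 and 184.5 CPM, and the A/J libraries 40.9, 43.4 and 83.1 CPM; the groups overlapped. The test among strains was passed (edgeR adjusted p = 0.0085), with 6 of 36 pairs, 3 with DBA/2J higher and 3 with C57BL/6J higher. DBA/2J exceeded A/J by 1.20 ± 0.32 (SE, log2; edgeR adjusted p = 0.0158).

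Acaca (ENSMUSG00000020532, chr11:84129672-84401651, plus strand), the cytosolic form that feeds synthesis, had the smallest range of strain means of log2 CPM among the 10 genes, 1.45-fold. It was highest in WSB/EiJ and lowest in NZO/HlLtJ, whose libraries had 115, 96.1 and 125 CPM and 78.7, 73.6 and 79.1 CPM and did not overlap. The strain means were 112 ± 14.9 CPM in WSB/EiJ, 111 ± 17.3 CPM in CAST/EiJ, 104 ± 18.2 CPM in C57BL/6J, 100.4 ± 15.2 CPM in PWK/PhJ and 92.6 ± 12.8 CPM in 129S1/SvImJ, and then 90.2 ± 22.3 CPM in A/J, 87.5 ± 15.8 CPM in DBA/2J, 85.1 ± 7.54 CPM in NOD/ShiLtJ and 77.1 ± 3.03 CPM in NZO/HlLtJ (SD, n = 3 each). Its strain effect missed the threshold (edgeR adjusted p = 0.119), and reached an adjusted p of 0.0351 with the Kupffer and endothelial marker levels in the model. NZO/HlLtJ was lower than WSB/EiJ by 0.54 ± 0.19 (SE, log2; edgeR adjusted p = 0.028) and lower than CAST/EiJ by 0.53 ± 0.19 (adjusted p = 0.037), the only 2 pairs that passed. CAST/EiJ, among the lowest strains for most of the other enzymes, was second for Acaca, at 111 CPM.

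Fasn (ENSMUSG00000025153, chr11:120805846-120824547, minus strand), which builds palmitate, was highest in DBA/2J, PWK/PhJ and C57BL/6J and lowest in A/J and CAST/EiJ, 2.67-fold between the extreme strain means of log2 CPM. Mean levels were 844 ± 25.6 CPM in DBA/2J, 769.8 ± 50 CPM in PWK/PhJ, 746 ± 317 CPM in C57BL/6J, 598 ± 249 CPM in WSB/EiJ and 443 ± 93.7 CPM in NOD/ShiLtJ (SD, n = 3 each). Below them were 404 ± 34.6 CPM in NZO/HlLtJ, 369 ± 136 CPM in 129S1/SvImJ, 347 ± 187 CPM in A/J and 323 ± 79.9 CPM in CAST/EiJ. The DBA/2J libraries had 819, 844 and 870.3 CPM and the PWK/PhJ libraries 752, 731 and 826 CPM. Both sets lay close together and above every library of 129S1/SvImJ, A/J, NOD/ShiLtJ, NZO/HlLtJ and CAST/EiJ, while the C57BL/6J libraries were spread, at 387, 986 and 865 CPM. The strain effect passed (edgeR adjusted p = 0.00249), with 11 of 36 pairs. CAST/EiJ was lower than DBA/2J by 1.39 ± 0.35 (SE, log2; edgeR adjusted p = 0.00399) and lower than PWK/PhJ by 1.25 ± 0.35 (adjusted p = 0.00801). CAST/EiJ was also lower than C57BL/6J by 1.21 ± 0.35 (adjusted p = 0.00899), although a C57BL/6J library fell within the CAST/EiJ range.

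Elovl6 (ENSMUSG00000041220, chr3:129532355-129638495, plus strand), which lengthens palmitate to stearate, was highest in WSB/EiJ, with 166, 171 and 173 CPM in its 3 libraries. The spread of that strain was small beside C57BL/6J, with 61.7, 198 and 177 CPM, and A/J, with 56.7, 30.9 and 94.8 CPM. Mean levels were 169.9 ± 3.51 CPM in WSB/EiJ, 145.5 ± 73.4 CPM in C57BL/6J, 136.5 ± 56 CPM in PWK/PhJ, 115 ± 55.1 CPM in DBA/2J and 72 ± 25.8 CPM in NOD/ShiLtJ (SD, n = 3 each), and then 63.1 ± 27.3 CPM in 129S1/SvImJ, 60.8 ± 32.1 CPM in A/J, 60.6 ± 9.7 CPM in NZO/HlLtJ and 56.5 ± 10.4 CPM in CAST/EiJ. A difference among strains passed (edgeR adjusted p = 0.00309), with 12 of 36 pairs. WSB/EiJ exceeded CAST/EiJ by 1.59 ± 0.43 (SE, log2; edgeR adjusted p = 0.00556), and it also exceeded 129S1/SvImJ, A/J, NOD/ShiLtJ and NZO/HlLtJ. By mean CPM, WSB/EiJ thus had the highest Elovl6 of the strains while its Scd1, the next step, ranked 7th. Its Elovl6 did not differ at the threshold from that of C57BL/6J, PWK/PhJ or DBA/2J, and its Scd1 differed only from that of C57BL/6J.

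Scd1 (ENSMUSG00000037071, chr19:44394455-44407879, minus strand), which makes oleate from stearate, was the most abundant of the 10 transcripts and was 9.48-fold higher in C57BL/6J than in CAST/EiJ in the model. Its mean was highest in C57BL/6J, whose libraries had 2695, 8344 and 13080 CPM, and lowest in CAST/EiJ, with 1524, 386 and 634 CPM. These did not overlap, but the lowest C57BL/6J library lay within the ranges of DBA/2J, NZO/HlLtJ and WSB/EiJ and below every library of 129S1/SvImJ and PWK/PhJ. Mean levels were 8040 ± 5200 CPM in C57BL/6J, 4696 ± 2070 CPM in 129S1/SvImJ, 4282 ± 1304 CPM in PWK/PhJ, 3514 ± 2371 CPM in DBA/2J and 3067 ± 616 CPM in NZO/HlLtJ (SD, n = 3 each). The lower strains were 1980 ± 160.3 CPM in NOD/ShiLtJ, 1952 ± 930.4 CPM in WSB/EiJ, 1496 ± 247 CPM in A/J and 848 ± 598.5 CPM in CAST/EiJ. NOD/ShiLtJ and A/J had narrow ranges, with 2014, 1806 and 2121 CPM and 1396, 1315 and 1777 CPM. The test among strains was passed (edgeR adjusted p = 0.000282), with 11 of 36 pairs, and 5 strains were lower than C57BL/6J. CAST/EiJ was lower by 3.25 ± 0.55 (SE, log2; edgeR adjusted p = 6.02e-05), A/J by 2.43 ± 0.53 (adjusted p = 0.00347), WSB/EiJ by 2.04 ± 0.53 (adjusted p = 0.00869), NOD/ShiLtJ by 2.02 ± 0.52 (adjusted p = 0.0101) and NZO/HlLtJ by 1.39 ± 0.52 (adjusted p = 0.0445). Without C57BL/6J replicate 4, its highest library, 3 of these 5 were lost: the log2 fold change was then -0.85 for NZO/HlLtJ, -1.48 for NOD/ShiLtJ and -1.50 for WSB/EiJ. The CAST/EiJ value was -3.98 without CAST/EiJ replicate 1, and the call held. The WSB/EiJ call was also lost without WSB/EiJ replicate 2 (-1.74). The NZO/HlLtJ call was lost in 5 of the 6 fits that left out a library. The estimated counts of Scd1 were not whole in any of the 27 libraries, so the same uncertainty holds for it.

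Pnpla3 (ENSMUSG00000041653, chr15:84167837-84187236, plus strand), which encodes a lipid droplet protein with lipase and acyltransferase activity, had the lowest level and the widest range, 33.8-fold in the model between PWK/PhJ and WSB/EiJ. The PWK/PhJ libraries had 26.6, 30.7 and 40.6 CPM, and every one exceeded every library of the other strains. The WSB/EiJ libraries had 1.94, 0.686 and 0.23 CPM, of which the lowest held 5 counts. Between them, C57BL/6J libraries had 2.77, 6.53 and 12.1 CPM, DBA/2J 10.4, 5.37 and 4.21 CPM, and NOD/ShiLtJ 3.21, 9.36 and 3.1 CPM. These 3 strains overlapped one another. NZO/HlLtJ libraries had 4.13, 5.95 and 2.02 CPM, A/J 1.19, 2.34 and 6.4 CPM, 129S1/SvImJ 0.806, 2.49 and 3.78 CPM, and CAST/EiJ 2.33, 1.78 and 2.06 CPM. The strain means were 32.6 ± 7.25 CPM in PWK/PhJ, 7.12 ± 4.68 CPM in C57BL/6J, 6.66 ± 3.28 CPM in DBA/2J, 5.22 ± 3.58 CPM in NOD/ShiLtJ and 4.03 ± 1.97 CPM in NZO/HlLtJ, and then 3.31 ± 2.74 CPM in A/J, 2.36 ± 1.49 CPM in 129S1/SvImJ, 2.06 ± 0.276 CPM in CAST/EiJ and 0.952 ± 0.885 CPM in WSB/EiJ (± is the SD, n = 3). The strain effect had an edgeR adjusted p of 3.26e-06, and 14 of 36 pairs passed, among them all 8 with PWK/PhJ. PWK/PhJ exceeded C57BL/6J by 2.20 ± 0.60 (SE, log2; edgeR adjusted p = 0.00782) and WSB/EiJ by 5.08 ± 0.72 (adjusted p = 7.37e-06). Without C57BL/6J replicate 4 the first of these was 2.82. All 8 pairs also passed without each PWK/PhJ library in turn, and 6 passed with the Kupffer and endothelial marker levels in the model. WSB/EiJ was lower than C57BL/6J by 2.88 ± 0.70 (SE, log2; edgeR adjusted p = 0.00589), without overlap; the log2 fold change was -3.90 without WSB/EiJ replicate 2 and -2.26 without C57BL/6J replicate 4, and the call held in both. CAST/EiJ was lower than C57BL/6J by 1.78 ± 0.64 (adjusted p = 0.0306), a call that was lost in 5 of 6 fits that left out a library (-1.16 without C57BL/6J replicate 4). Reads were counted at the C57BL/6J gene model or at a model of each strain, which is not given in the sources used here, and mismatches in divergent strains can lower a count. Pnpla3 also shares exon sequence with Gm49513 on the same strand, and how reads of the shared bases were assigned is not given.

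**Figure D2:**
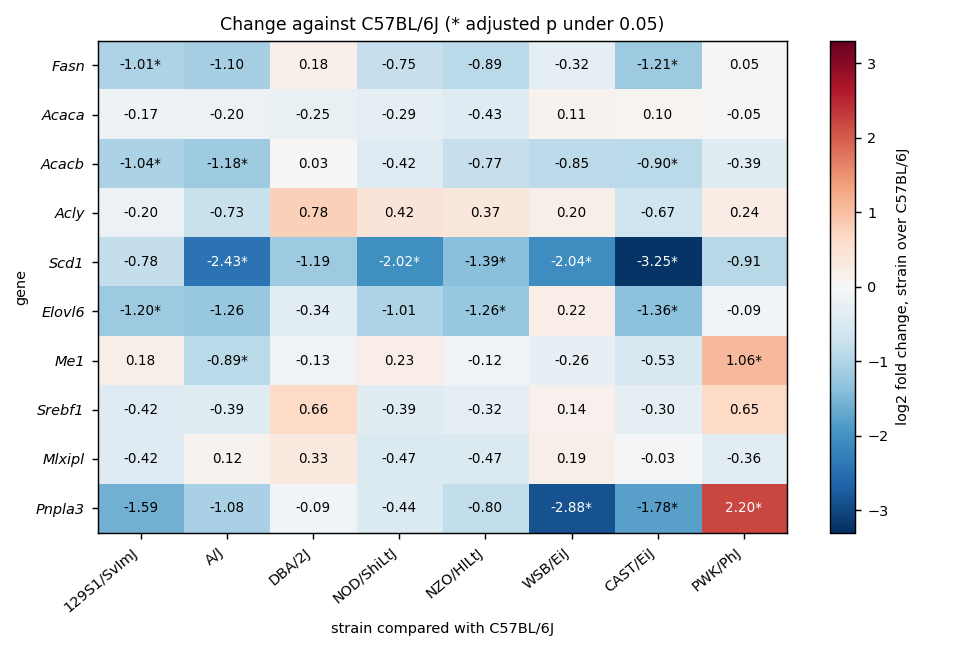
Log2 fold change of each gene (rows) in 8 strains (columns) over C57BL/6J, from the edgeR model of 27 libraries; red is higher than C57BL/6J, blue is lower, and an asterisk marks an adjusted p under 0.05. The asterisks number 18, of which 16 are lower values and 2, Me1 and Pnpla3 in PWK/PhJ, are higher.

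Against C57BL/6J, 16 of 80 member tests were lower and 2 were higher. CAST/EiJ had 5 members lower (Fasn, Acacb, Scd1, Elovl6 and Pnpla3), where 19.7% of all genes tested were lower and 38% were called in either direction. In 129S1/SvImJ 3 members were lower (Fasn, Acacb and Elovl6; background 11.7% lower, 20.9% called), and in A/J 3 (Acacb, Scd1 and Me1; 4.03% lower, 7.84% called). NZO/HlLtJ had 2 lower (Scd1 and Elovl6; 16.2% lower, 29.4% called), WSB/EiJ 2 (Scd1 and Pnpla3; 6.76% lower, 13.6% called) and NOD/ShiLtJ 1 (Scd1; 8.49% lower, 15.9% called). PWK/PhJ had 2 members higher (Me1 and Pnpla3), where 12.5% of all genes were higher and 26.2% were called. In DBA/2J 0 of 10 members passed in edgeR, with 2 at an unadjusted p under 0.05 and 1 called by DESeq2, where 9.06% of all genes were called. The median log2 fold change of the 10 members was -0.60 in 129S1/SvImJ, -0.98 in A/J, -0.62 in NZO/HlLtJ, -0.43 in NOD/ShiLtJ and -0.78 in CAST/EiJ. It was between -0.08 and 0 in WSB/EiJ, DBA/2J and PWK/PhJ, and the median over all genes was within 0.02 of 0 in every strain. The 8 comparisons share the C57BL/6J libraries and are not independent of one another.

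These calls rested in part on single libraries of C57BL/6J, whose members were spread widely. Without its replicate 1, its lowest library for 9 members, 17 of the 18 changes were kept and the members called came to 6 in NZO/HlLtJ, 5 in A/J, 3 in NOD/ShiLtJ and 1 in DBA/2J. Without replicate 2, 9 of 18 were kept, and without replicate 4, 7 were kept; 129S1/SvImJ and NZO/HlLtJ then had 0 members called, and CAST/EiJ had 1 and 2. The counts for 129S1/SvImJ fell to 0, 1 and 1 without its own replicates 1, 2 and 3. That for A/J fell to 1 without A/J replicate 2, and that for NZO/HlLtJ to 0 without any 1 of its own libraries. Without CAST/EiJ replicate 1, 4 or 5, CAST/EiJ had 3, 2 and 3 members called. NOD/ShiLtJ had 0 and WSB/EiJ 1 without C57BL/6J replicate 4, and DBA/2J had 1 without C57BL/6J replicate 2 or DBA/2J replicate 3. Of the 18 changes, 5 held in all 13 alternatives run for each: lower Scd1 in A/J and CAST/EiJ, lower Pnpla3 in WSB/EiJ, and higher Me1 and Pnpla3 in PWK/PhJ.

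Over all pairs, each strain entered 80 member tests, which share its 3 libraries and are not independent of one another. PWK/PhJ was the higher strain in 33 of its 80 member tests and the lower strain in 0, where 15.3% of all gene tests with PWK/PhJ had it higher. Me1 and Pnpla3 gave 8 each of these 33, and Acaca, Acacb and Mlxipl gave 0. DBA/2J was higher in 19 of 80 (background 9.15%) and lower in 2, and C57BL/6J was close to it, with 16 higher (background 10.6%) and 2 lower. CAST/EiJ was lower in 27 of 80 (background 17.3%) and A/J in 23 of 80 (background 12%). By log2 means, DBA/2J had the highest value for 5 members (Fasn, Acacb, Acly, Srebf1 and Mlxipl), and A/J the lowest for Acacb, Acly and Me1; A/J and CAST/EiJ were nearly equal at the low end for Fasn and Elovl6. Of 80 steps between neighbours in the order of the levels, which are the closest pairs by construction, 2 passed. They were PWK/PhJ over NOD/ShiLtJ for Me1 and PWK/PhJ over C57BL/6J for Pnpla3. The share over all genes was not counted for such steps. Libraries of the 2 strains did not overlap in 38.1% of all gene and pair tests; for members this was so in between 6 of 36 pairs (Mlxipl) and 21 of 36 (Me1). The count of 19 for DBA/2J was 7 without its replicate 2 and 5 without its replicate 3. That of CAST/EiJ was 13 without its replicate 4, and that of A/J was 15 without its replicate 1 and 8 without its replicate 2.

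Markers of other liver cells moved with these strains. The endothelial list was highest in PWK/PhJ, where its summed level ran from 248 to 809 CPM, against 63.3 to 112 CPM in NZO/HlLtJ, the lowest, and all 10 of its genes differed among strains. The Kupffer list, with 11 of 11 genes differing, had its highest mean log2 CPM in C57BL/6J (summed level 214 to 285 CPM) and its lowest in 129S1/SvImJ (43.3 to 93.2 CPM). In PWK/PhJ the highest endothelial value was that of replicate 1, at 809 CPM beside 248 and 287 CPM. The mean log2 CPM of the list in replicates 2 and 3, at 4.50 and 4.74, was also above that of most libraries of other strains. In replicate 1 the members were not of one kind. Among the PWK/PhJ libraries, Srebf1, Scd1 and Mlxipl were highest in it, Acaca, Acly, Elovl6, Me1 and Pnpla3 were lowest, and Fasn and Acacb lay between. With the mean levels of both lists in the model, PWK/PhJ was higher in 15 of 80 member tests instead of 33. CAST/EiJ was lower in 16 instead of 27 and A/J in 14 instead of 23, while DBA/2J was higher in 18. Of the 15 for PWK/PhJ, Me1 gave 8 and Pnpla3 6. The share of all genes called was not counted in that model, so a change in these counts cannot be told from a change over all genes. The PWK/PhJ increase of Me1 passed against all 8 strains in that model, and against C57BL/6J it called 0 members in 129S1/SvImJ and NOD/ShiLtJ, 1 in NZO/HlLtJ and 2 in CAST/EiJ. The lost calls often kept their size: in 129S1/SvImJ the log2 fold changes were -1.09 for Fasn, -1.14 for Acacb and -1.05 for Elovl6, with edgeR adjusted p of 0.257, 0.162 and 0.417, beside -1.01, -1.04 and -1.20 without the markers. In NOD/ShiLtJ that of Scd1 was -1.87 (adjusted p = 0.0721), and in CAST/EiJ that of Fasn was -1.25 (adjusted p = 0.0751), whereas that of Pnpla3 went from -1.78 to -1.12 (adjusted p = 0.4). Of the other lists, 8 of 10 hepatocyte, 6 of 10 stellate cell, 3 of 5 tested erythroid, 2 of 2 tested cholangiocyte and 1 of 1 tested lymphocyte genes differed among strains.

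Within strains, a library often lay above or below its strain mean for most members at once. C57BL/6J replicate 1 was below its strain mean for 9 of 10 members, with a median deviation of -0.69 in log2 CPM, and Me1 was the exception. In the same library 7 of 9 fasting response genes were above the strain mean; their mean log2 CPM was 7.64, beside 7.16 and 6.79 in replicates 2 and 4. In 129S1/SvImJ replicate 1 and in CAST/EiJ replicate 4, 10 of 10 members were below the strain mean, with median deviations of -0.39 and -0.22. Fasting response genes above the mean numbered 3 of 9 in the first and 6 of 9 in the second. In A/J, 9 members were below the mean in replicate 2 (median -0.32) and 9 were above it in replicate 3 (median 0.36), with 3 and 4 of 9 fasting genes above. The median deviation of all genes was within 0.02 of 0 in every library. The part of feeding state or time of day in these differences was not tested.

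**Figure D3:**
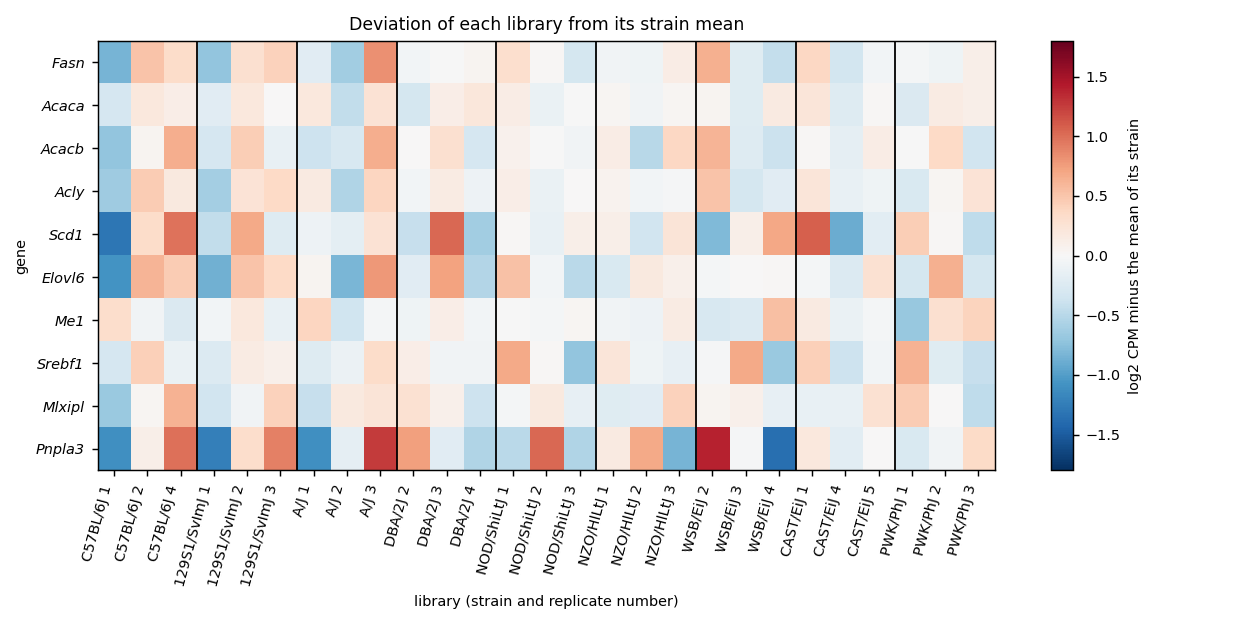
Deviation of log2 CPM from the mean of its strain for each of the 10 genes (rows) in each of the 27 libraries (columns, labelled with strain and replicate number); blue is below the strain mean and red above it, and the 3 values of a strain sum to 0. C57BL/6J replicate 1 is blue for 9 genes, and 129S1/SvImJ replicate 1 and CAST/EiJ replicate 4 are blue for all 10.

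Correlations between members are given as a description, over 9 strain means and over 27 deviations from the strain means, which come from the same libraries. Over the strain means, the 45 pairs of members had a median Pearson's r of 0.445 and 36 were positive, beside a median of -0.0011 and quartiles of -0.316 and 0.315 over all pairs of genes tested. Fasn went with Srebf1 (r 0.893, Spearman's rho 0.767), Elovl6 (r 0.849, rho 0.85) and Acacb (r 0.837, rho 0.85). Without DBA/2J and PWK/PhJ, the strains farthest from the median of Fasn, these values of r were 0.792, 0.899 and 0.754. Mlxipl went against Me1 (r -0.589, rho -0.633), and Acaca had a median r of -0.03 with the other members. Pnpla3 and Me1, both highest in PWK/PhJ, had an r of 0.709 (rho 0.5), and of 0.423 without PWK/PhJ and A/J.

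Over the deviations within strains, the 45 pairs had a median r of 0.433 and 39 were positive, beside a median of -0.0001 and quartiles of -0.235 and 0.236 over all pairs of genes. The highest value joined Fasn and Acly (r 0.895), the enzymes that supply and use acetyl-CoA carbon. Acaca, which followed no member closely between strains, went with Acly (r 0.738), Elovl6 (r 0.658) and Fasn (r 0.64) within them. Me1 was the exception, with a median r of -0.16 and values of -0.573 with Mlxipl and -0.518 with Srebf1. Without C57BL/6J replicate 1 the median over the 45 pairs was 0.296.

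**Figure D4:**
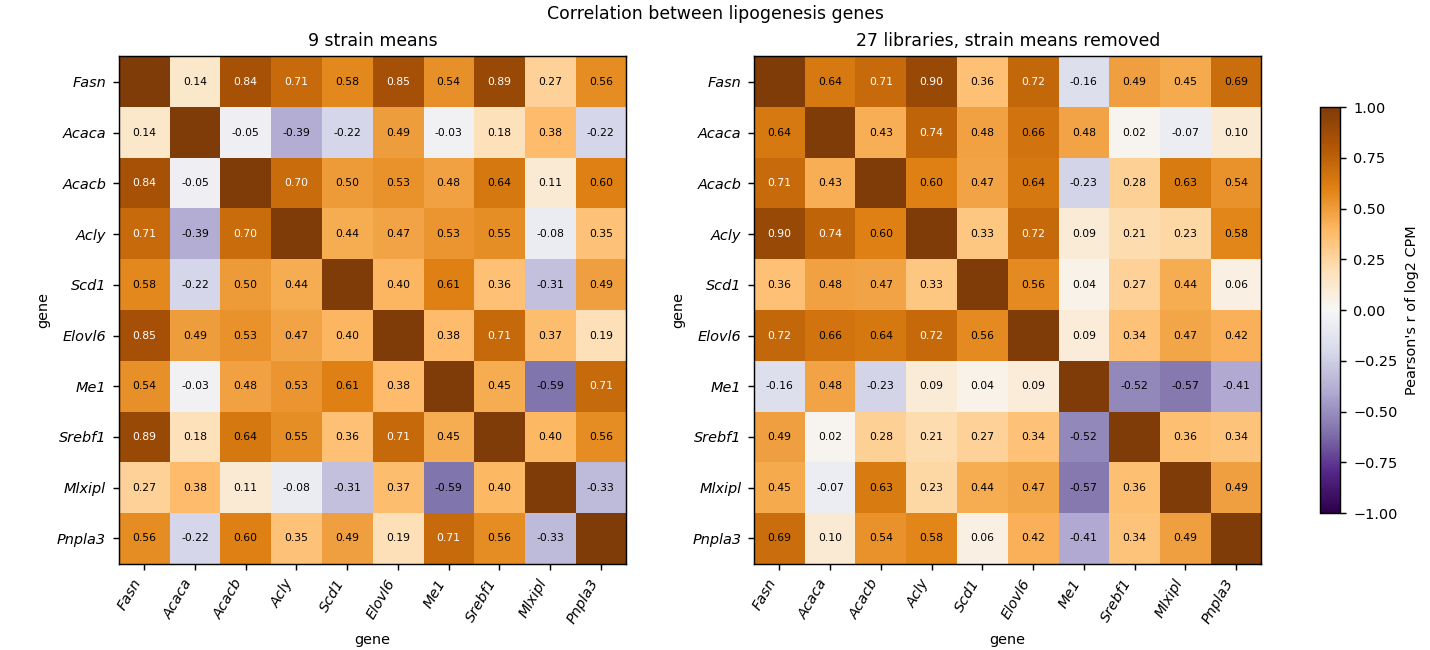
Pearson's r of log2 CPM between each pair of the 10 genes over the 9 strain means (left) and over the 27 libraries with the strain means removed (right); orange is positive and purple negative. Fasn, Acacb, Acly and Elovl6 are positive with one another in both panels, and Me1 is negative with Srebf1 only on the right.

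The genes whose strain means were most like each member were sought among 6094 or 6095 named genes averaging at least 10 CPM, over the 9 strains. For Acly, Adra1b (r 0.912), an adrenergic receptor, and Hes6 (r 0.868) were among the nearest 3. Members were near each other in the case of Fasn, with Srebf1 and Elovl6 next after Psmd3 (r 0.964), a proteasome subunit, and of Acacb, with Fasn second after Capza1 (r 0.858). For Scd1 the nearest was Plekhm1 (r 0.945) and Gpam, which makes the first step of glycerolipid synthesis, was among the nearest 3 (r 0.866). For Elovl6 it was Sppl2a (r 0.915), for Me1 Rexo4 (r 0.954), for Srebf1 Gltpd2 (r 0.947) and for Pnpla3 Chpf2 (r 0.937). With 9 points and so many genes, high values of r can arise by number alone.

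Other genes of the pathway were counted in 5 lists by the same test among strains, where 74.2% of all genes passed. In the control of SREBP by sterols and LXR, 7 of 9 passed, with the widest ranges for the SREBP retention proteins Insig1 and Insig2. Insig1 had 659 ± 219.5 CPM (SD, n = 3) in DBA/2J and 90.2 ± 31.4 CPM in CAST/EiJ (edgeR adjusted p = 0.00014). Insig2 had 499 ± 141.5 CPM in WSB/EiJ and 169 ± 9.72 CPM in NZO/HlLtJ (edgeR adjusted p = 0.000158). By mean CPM, DBA/2J was the highest strain and CAST/EiJ the lowest for Fasn as well.

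All 7 genes of glucose entry and the ChREBP partner passed. The glucose transporter Slc2a2 had 499 ± 112 CPM (SD, n = 3) in WSB/EiJ and 164 ± 42.7 CPM in NZO/HlLtJ (edgeR adjusted p = 7.96e-05). Of the suppliers of citrate, acetate and NADPH, 5 of 7 passed. Acss2, which makes acetyl-CoA from acetate, had 247.5 ± 146 CPM in C57BL/6J and 71.8 ± 8.51 CPM in CAST/EiJ (edgeR adjusted p = 0.00113). Idh1, a cytosolic source of NADPH, had 313 ± 16.2 CPM in NOD/ShiLtJ and 168 ± 16.7 CPM in WSB/EiJ (edgeR adjusted p = 0.000679).

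Of the regulators of the carboxylases and of malonyl-CoA, 5 of 6 passed. Mid1ip1, which promotes polymerisation of acetyl-CoA carboxylase, had 63.6 ± 17.9 CPM (SD, n = 3) in PWK/PhJ and 17.6 ± 1.06 CPM in A/J (edgeR adjusted p = 5.06e-05). Cpt1a, the malonyl-CoA-sensitive gate of mitochondrial fatty acid oxidation, had the reverse order, with 556.5 ± 60.7 CPM in A/J and 199 ± 40.8 CPM in PWK/PhJ (edgeR adjusted p = 1.8e-05). All 10 genes of glycerolipid assembly and other desaturases and elongases passed. Scd2, a desaturase of other tissues, was low, with 5.69 ± 4.45 CPM in PWK/PhJ and 0.858 ± 0.279 CPM in NZO/HlLtJ (edgeR adjusted p = 0.000431). Lpin1, a phosphatidate phosphatase, had 165 ± 199.5 CPM in 129S1/SvImJ, where the SD exceeded the mean, and 17.8 ± 1.84 CPM in DBA/2J (edgeR adjusted p = 0.0192).

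Against C57BL/6J, CAST/EiJ had 6 of 10 glycerolipid genes lower and 0 higher, and 4 of 9 sterol control genes lower and 3 higher, where 38% of all genes were called. In the fasting response list 9 of 9 genes differed among strains. Its mean log2 CPM was lowest in PWK/PhJ, at 5.47 ± 0.10 (SD, n = 3), and lay close together in A/J (7.06 ± 0.23), 129S1/SvImJ (7.17 ± 0.17) and C57BL/6J (7.20 ± 0.42). By summed level, PWK/PhJ was also lowest (3087 CPM) and WSB/EiJ highest (6879 CPM). The mean log2 CPM of the 10 lipogenesis genes was 7.998 ± 0.099 in PWK/PhJ, 7.75 ± 0.23 in DBA/2J and 7.69 ± 0.58 in C57BL/6J, and 6.80 ± 0.44 in A/J and 6.77 ± 0.27 in CAST/EiJ. By summed level, which Scd1 dominates, C57BL/6J was first, at 10280 CPM beside 6947 CPM in PWK/PhJ. The orders of the lists were not opposite throughout. CAST/EiJ was also low for the fasting list, at 6.24 ± 0.14. C57BL/6J, among the highest for the lipogenesis genes, had the highest fasting mean, at 7.20 ± 0.42. NZO/HlLtJ was low for the fasting list, at 6.17 ± 0.45, and had 7.17 ± 0.05 for the lipogenesis genes. The widest fasting ranges were those of Cyp4a14, with 2049 ± 59.5 CPM in A/J and 14.97 ± 3.39 CPM in PWK/PhJ (edgeR adjusted p = 6.99e-07), and of Fgf21, with 2.97 ± 1.83 CPM in A/J and 0.147 ± 0.083 CPM in CAST/EiJ (adjusted p = 0.000109). Of 12 clock genes 9 passed; Dbp had 20.7 ± 13.5 CPM in CAST/EiJ and 0.566 ± 0.0201 CPM in NOD/ShiLtJ (edgeR adjusted p = 0.0017), and Per2 had 13.2 ± 5.77 CPM in CAST/EiJ and 0.899 ± 0.154 CPM in PWK/PhJ (adjusted p = 5.97e-06). The part of these differences in the levels of the lipogenesis genes was not tested.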

How the data were processed

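RNA of 27 liver hepatocyte libraries was analysed, 3 for each of 9 mouse strains. Per the labels' protocols, RNA was purified on columns with DNase, selected for poly(A) and made into libraries with a TruSeq kit. The authors deposited estimated counts per gene, 14.7% of which are not whole; they were rounded, which changed no library total by more than 0.00024%. Per the submitters' processing notes, the build was GRCm38 (mm10), and FastQC 0.11.5 and DESeq2 were used. The aligner, the counter and whether strain genomes were used are not given in the sources used here, and reads of divergent strains can be lost against one reference.

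Genes were filtered with filterByExpr (14482 of 43346 kept), scaled by TMM and fitted in 1 model of all libraries with edgeR 4.0.16 (R 4.3.3, limma 3.58.1), with quasi-likelihood tests and Benjamini-Hochberg adjustment over all genes tested; an adjusted p under 0.05 was called. CPM uses the TMM-scaled library size, and log2 CPM a prior count of 2. Library totals ran from 17015942 to 35078485 counts. The spread within strains was 24.4 to 135 times counting noise (chi-square per degree of freedom), so the totals alone did not set the precision. Symbols and coordinates are from GENCODE M21, promoters from RefSeq. All members are named; of each pathway, fasting and clock list, the 2 genes with the largest range of strain means among those called are named, and for each called member the 3 genes most like it were found, of which the nearest are named. One gene that these rules name is not reported here. Members and lists were chosen with earlier results of these data known. The fit was tested on simulated data. Alternatives were DESeq2 1.42.0, median-of-ratios scaling, other filters, a prior count of 0.5, a replicate block, Kupffer and endothelial covariates, 2-strain fits, and leaving out each library. Histone and methylation data of the study were not analysed here.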

Additional observations from a re-analysis of the deposited data

How the results depend on the processing

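None of the 18 calls against C57BL/6J changed direction in any alternative run, and 13 lost significance in at least 1. The causes were not tested. The share of all genes called was not counted in the alternatives, so a change in a member count cannot be told from a change over all genes. Replicate numbers did not pair the libraries: deviations of same-numbered libraries of different strains had a median correlation of 0.0231 (-0.293 to 0.275 over 76 pairs), against -0.00426 for different numbers. With a replicate block, the 92 pair calls became 61, and calls against C57BL/6J became 1 each in A/J, NZO/HlLtJ and CAST/EiJ; the A/J folds lost did not shrink (Acacb -1.22 and Me1 -0.89 on the log2 scale, each with adjusted p = 0.0506). The DBA/2J-higher count became 11 and the CAST/EiJ-lower count 7. With Kupffer and endothelial covariates, calls against C57BL/6J were 0 in 129S1/SvImJ and NOD/ShiLtJ, 1 in DBA/2J and NZO/HlLtJ and 2 in CAST/EiJ; PWK/PhJ was higher in 15 tests, CAST/EiJ lower in 16 and A/J lower in 14. The 129S1/SvImJ folds stayed near their size, from -1.14 to -1.05. Fits of 2 strains alone called 1 member in 129S1/SvImJ and 1 in A/J. With no filter on low counts, A/J had 5 and DBA/2J 1; with DESeq2, DBA/2J had 1 and NZO/HlLtJ 4. Leaving out each library in turn gave 8 to 9 members differing among strains and 75 to 115 pair calls. Against C57BL/6J, leaving out each of the 6 libraries compared gave 0 to 4 in 129S1/SvImJ, 1 to 5 in A/J, 0 to 1 in DBA/2J, 0 to 3 in NOD/ShiLtJ, 0 to 6 in NZO/HlLtJ, 1 to 3 in WSB/EiJ, 1 to 6 in CAST/EiJ and 2 to 2 in PWK/PhJ. Leaving out each of a strain's own 3 libraries gave counts of higher tests of 26 to 31 for PWK/PhJ and 5 to 18 for DBA/2J, and of lower tests 13 to 25 for CAST/EiJ and 8 to 24 for A/J. The median correlation of members ran from 0.393 to 0.496 over strain means and from 0.296 to 0.471 within strains, and the median between-strain share from 61% to 72%. Where a strain was left with 2 libraries, the model pools their spread with that of the other strains. Pnpla3 rests on as few as 5 counts in a library.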
